A study of Mus musculus with 20 samples.

Results

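The genes examined here were 7 genes, *Nrip3*, *Nol4*, *Cd55*, *Sphkap*, *Fam184b*, *Lhfp* and *Adssl1*, of the 24411 genes in the RNA-seq tables of the cochlea of *Bai1*-deficient mice. They were chosen by name, because the study lists them among the genes with lower expression in spiral ganglion neurons (SGNs) of mice that lack VGLUT3, the vesicular glutamate transporter of the inner hair cells (IHCs). The study shows that list beside values of these same libraries, and the choice was made with earlier results of them known, so the members are not independent evidence of a direction. The question was whether the genes also differed between genotypes in mice that lack the long isoform of BAI1 (gene *Adgrb1*), an adhesion G protein-coupled receptor, and whether they changed between P7, before hearing onset, and P22, after it.

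RNA was measured in micro-dissected sensory epithelium and SGNs, each library a pool of 4 mice, kept on the C57BL/6N background with both sexes in use. The heterozygous mice, *Bai1tm2b/+*, were the control group and carried 1 tm2b allele, while their littermates, *Bai1tm2b/tm2b*, carried it on both chromosomes. The tm2b allele lacks exons 3 and 4 in every cell and holds a lacZ cassette, and it leaves the short isoform in place. There was no wild-type group. At P22 there were 3 libraries per genotype, and at P7 there were 7 per genotype, of which replicates 5 to 7 were deposited as estimated counts and replicates 1 to 4 as whole numbers that behave as TPM (a level per length of transcript).

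IHCs release glutamate onto the terminals of SGNs, and VGLUT3 loads that glutamate into the synaptic vesicles. Without VGLUT3 the vesicles stay empty of it and the SGNs receive no input from the IHCs. The 7 genes do not form a pathway. *Nrip3* encodes a nuclear receptor interacting protein, *Nol4* encodes a nucleolar protein found in neurons, and *Cd55* encodes decay-accelerating factor, a surface protein that limits complement. *Sphkap* encodes an anchoring protein that binds the regulatory subunit of protein kinase A. *Fam184b* encodes a coiled-coil protein without an established role, *Lhfp* a protein with 4 membrane-spanning segments, and *Adssl1* an adenylosuccinate synthase of the purine nucleotide cycle that is best known from muscle.

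Promoter sequences (250 bases before to 50 after the start, RefSeq, GRCm38.p6) were found for 5 of the 7 genes. They are shown for the gene called lower at P22 for which a sequence was used, for the member that fell most with age and for the member that rose most with age. Capitals mark the letters TGACG (the core of the cAMP response element), TGANTCA (AP-1) and CANNTG (E-box) on either strand.
Cd55, chr1:130462695-130462994, minus strand: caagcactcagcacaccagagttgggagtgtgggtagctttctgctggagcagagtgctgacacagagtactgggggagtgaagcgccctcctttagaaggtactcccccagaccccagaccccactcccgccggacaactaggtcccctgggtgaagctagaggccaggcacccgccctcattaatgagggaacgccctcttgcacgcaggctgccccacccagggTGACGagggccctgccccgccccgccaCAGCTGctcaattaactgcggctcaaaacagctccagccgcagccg
Fam184b, chr5:45639452-45639751, minus strand: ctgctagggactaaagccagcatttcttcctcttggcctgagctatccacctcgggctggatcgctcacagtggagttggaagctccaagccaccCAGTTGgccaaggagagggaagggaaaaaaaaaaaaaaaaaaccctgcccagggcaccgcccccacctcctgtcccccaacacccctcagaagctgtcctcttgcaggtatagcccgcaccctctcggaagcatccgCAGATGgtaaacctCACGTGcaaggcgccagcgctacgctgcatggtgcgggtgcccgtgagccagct
Adssl1, chr12:112619797-112620096, plus strand: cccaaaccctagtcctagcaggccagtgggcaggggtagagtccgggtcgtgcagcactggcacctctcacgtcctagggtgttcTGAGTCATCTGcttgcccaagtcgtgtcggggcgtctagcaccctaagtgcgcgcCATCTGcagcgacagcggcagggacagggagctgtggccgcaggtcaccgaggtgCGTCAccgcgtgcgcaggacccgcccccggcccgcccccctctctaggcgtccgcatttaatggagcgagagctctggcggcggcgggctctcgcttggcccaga
The *Cd55* promoter held 1 TGACG, 23 bases before the start, and 1 E-box. The *Fam184b* promoter held 3 E-boxes and neither of the other motifs. The *Adssl1* promoter held 1 TGACG on the opposite strand, 1 AP-1 motif and 2 E-boxes, of which 1 overlaps the AP-1 motif. Of the 2 promoters not printed, that of *Sphkap* held 1 E-box and that of *Lhfp* none of the motifs. Among 32851 promoters of the same length, 20.8% held TGACG, 7.81% held TGANTCA and 72.3% held CANNTG. These matches describe letters only.

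The genes lie on 6 chromosomes of GRCm38 (mm10), so none but *Cd55* and *Sphkap* share one. *Nrip3* is at chr7:109758055-109782025 (minus strand), *Nol4* at chr18:22693181-23041653 (minus), *Cd55* at chr1:130439027-130462744 (minus) and *Sphkap* at chr1:83254139-83408200 (minus). *Fam184b* is at chr5:45529705-45639614 (minus), *Lhfp* at chr3:53041528-53261679 (plus) and *Adssl1* at chr12:112620045-112641360 (plus). All are annotated as protein coding. Of the exon bases of *Fam184b*, 20.9% overlap genes on the opposite strand (*9630001P10Rik* and *Gm42521*), against 4.46% for *Lhfp*, 2.10% for *Cd55* and 0% for the other members. Whether the counting used strand was not stated, so counts of *Fam184b* are uncertain to that extent. *9630001P10Rik* had between 43 and 177 counts per library, or 6.10% to 19.6% of those of *Fam184b*.

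Libraries in counts summed to between 31108551 and 58807173 at P7 and between 35725985 and 40350413 at P22, and the reads behind the libraries in rounded TPM are unknown. *Adgrb1*, summed over its transcripts, was at 137 to 151 CPM (counts scaled to the size of the library) in *Bai1tm2b/+* and 90.8 to 95.8 CPM in *Bai1tm2b/tm2b* at P22. It was at 35.5 to 61.5 and 23.8 to 34.3 CPM in the P7 libraries in counts, while the genotypes overlapped in rounded TPM (7.69 to 12.1 and 8.61 to 11.1 TPM). Markers of neurons (14 genes), SGNs (8 genes) and hair cells (8 genes) were all detected in each group. Since each library is bulk tissue, fewer cells of a type and less RNA per cell cannot be told apart.

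At P22, the genotype difference was seen most clearly in *Nrip3*, *Nol4* and *Cd55*, which were lower in *Bai1tm2b/tm2b* mice by 1.78, 1.62 and 1.49 fold. A gene was called when its adjusted p value was under 0.05 (edgeR, quasi-likelihood test, Benjamini-Hochberg), the log2 fold change exceeded 0.5 up or down, and its standard error (SE) stayed below 0.5. Of the 7 genes tested, 3 were called lower and 0 higher, where 1.41% of all 15439 genes tested were called lower and 1.74% higher. The median log2 fold change was -0.32 for the 7 genes and 0.01 for all genes, and all 7 estimates were below 0, as were 47.6% of all genes.

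*Nrip3* was at 21.3, 20.004 and 22.2 CPM in the *Bai1tm2b/+* libraries and at 9.77, 12.8 and 13.1 CPM in the *Bai1tm2b/tm2b* libraries. The highest *Bai1tm2b/tm2b* library was well below the lowest control library. The log2 fold change was -0.83 (SE 0.115, adjusted p = 0.00292, edgeR), and the gene stayed called when any single library was left out, with estimates of -0.91 to -0.71. *Nol4* was at 5.38, 5.66 and 5.25 CPM in *Bai1tm2b/+* and at 3.00, 2.93 and 4.14 CPM in *Bai1tm2b/tm2b* (log2 fold change -0.69, SE 0.172, adjusted p = 0.0276, edgeR). The groups did not overlap, although *Bai1tm2b/tm2b* replicate 3 stood above the other two. *Nol4* is the weakest expressed of the 7, with 122 to 200 counts per library at P22.

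*Cd55* was at 12.2, 11.1 and 12.6 CPM in *Bai1tm2b/+* and at 8.37, 6.80 and 8.94 CPM in *Bai1tm2b/tm2b*, again without overlap (log2 fold change -0.58, SE 0.125, adjusted p = 0.0162, edgeR). The calls of *Nol4* and *Cd55* were not kept when certain single libraries were left out. *Nol4* lost its call without *Bai1tm2b/+* replicate 1, 2 or 3 or *Bai1tm2b/tm2b* replicate 1 or 2 (adjusted p = 0.0503 to 0.0939, edgeR), with estimates between -0.72 and -0.60. *Cd55* lost it without *Bai1tm2b/+* replicate 1 (log2 fold change -0.56, adjusted p = 0.0688) or replicate 3 (-0.54, adjusted p = 0.0597), and without *Bai1tm2b/tm2b* replicate 2 (-0.46, below the limit on size, adjusted p = 0.0496). Without any of those last 3 libraries 1 member was left called, *Nrip3*.

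The next 3 genes had smaller differences of nearly the same size. *Lhfp* was at 40.4, 37.6 and 36.6 CPM in *Bai1tm2b/+* and at 30.6, 33.2 and 28.3 CPM in *Bai1tm2b/tm2b* (log2 fold change -0.32, SE 0.0785, adjusted p = 0.0281, edgeR), so it passed the test but not the limit on size. *Sphkap* was at 53.5, 55.3 and 71.9 CPM in *Bai1tm2b/+* and at 49.4, 51.8 and 44.6 CPM in *Bai1tm2b/tm2b* (log2 fold change -0.31, SE 0.108, adjusted p = 0.0868). *Fam184b* was at 13.1, 14.03 and 13.7 CPM in *Bai1tm2b/+* and at 10.1, 12.4 and 10.1 CPM in *Bai1tm2b/tm2b* (log2 fold change -0.32, SE 0.109, adjusted p = 0.0793). With 1 library left out at a time, the estimates were -0.42 to -0.27 for *Fam184b* and -0.37 to -0.26 for *Lhfp*. For *Sphkap* they were -0.39 to -0.16, with -0.16 reached without *Bai1tm2b/+* replicate 3. In each of these 3 genes every *Bai1tm2b/tm2b* library was below every control library. *Adssl1* was at 26.4, 25.0 and 25.6 CPM in *Bai1tm2b/+* and at 25.3, 24.6 and 24.6 CPM in *Bai1tm2b/tm2b*, and the groups overlapped (log2 fold change -0.05, SE 0.0678, adjusted p = 0.706). Groups without overlap and lower in *Bai1tm2b/tm2b* were thus found in 6 of the 7 genes, and in 17.9% of all genes tested. Calls of a lower level were made for 1.41% of all genes tested.

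**Figure D1:**
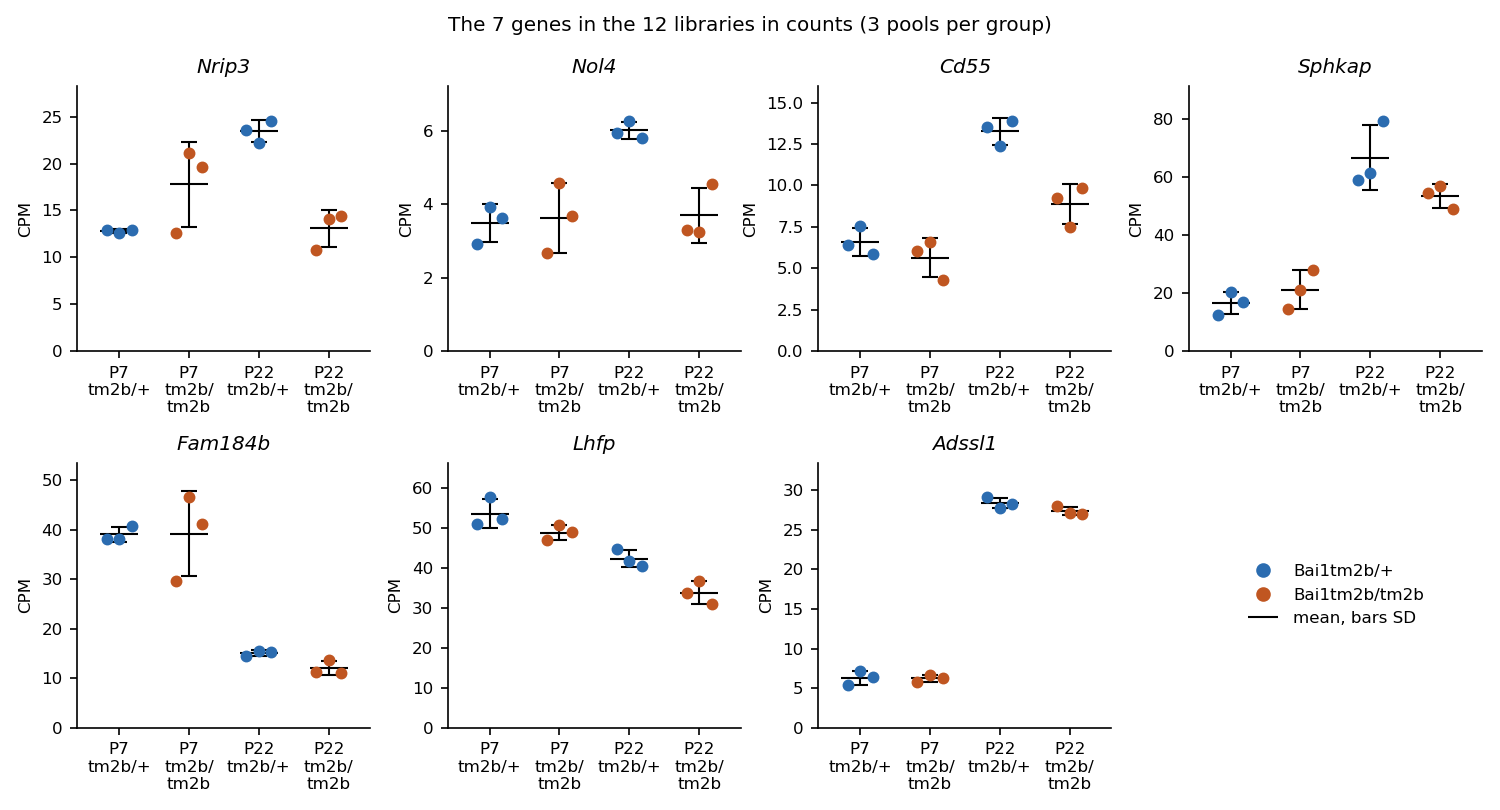
CPM of each gene (y axis, from 0) in the 12 libraries in counts by age and genotype (x axis), scaled together by TMM, with 1 point per pool of 4 mice and the mean and SD of 3 pools in black. *Nrip3* and *Nol4* are higher at P22 than at P7 in the *Bai1tm2b/+* libraries but not in the *Bai1tm2b/tm2b* libraries, while *Adssl1* is at about the same level in both genotypes at each age.

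Markers of several cell types moved with genotype at P22 (sums in CPM, all 12 libraries scaled together). The summed level of 14 neuron markers was 13813 to 15415 CPM in *Bai1tm2b/+* and 10817 to 12072 CPM in *Bai1tm2b/tm2b*, with 0 of 14 markers called. That of 8 SGN markers was 2412 to 2660 and 1917 to 2123 CPM, with 1 of 8 called lower. Hair cell markers summed to 352 to 380 and 416 to 507 CPM (1 of 8 called higher), and supporting cell markers to 942 to 1095 and 1186 to 1243 CPM (2 of 7 called higher). Markers of central glia, cells of the brain and central nerve, summed to 651 to 792 and 935 to 1514 CPM, with 5 of 6 called higher. No marker of these lists was at 0 throughout a P22 group.

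Scaled to the neuron markers, the log2 fold change at P22 was -0.48 for *Nrip3* (SE 0.1405, adjusted p = 0.0144, edgeR), -0.35 for *Nol4* (adjusted p = 0.137) and -0.23 for *Cd55* (adjusted p = 0.143), and 0 members were called lower or higher, where 0.272% of all genes were called lower and 21.7% higher. On that scale *Sphkap* (0.05), *Fam184b* (0.03) and *Lhfp* (0.03) had estimates just above 0, and *Adssl1* was at 0.30 (SE 0.0894, adjusted p = 0.0143). The same scaling moved the median of all genes from 0.01 to 0.36, a shift of about the same size as that of each of the 7 genes. As a percentage of the summed neuron markers, *Nrip3* was at 0.161% ± 0.00220 (SD, n = 3) in *Bai1tm2b/+* and 0.116% ± 0.0231 (n = 3) in *Bai1tm2b/tm2b*, and the groups still did not overlap (0.1595% to 0.164% and 0.0894% to 0.1303%). On this measure the groups also stayed apart for *Cd55*, lower in *Bai1tm2b/tm2b* (0.08944% to 0.0942% and 0.0694% to 0.0880%), and for *Adssl1* in the other direction (0.1835% to 0.203% and 0.232% to 0.251%), and overlapped for the remaining 4 genes. The share of all genes without overlap on this measure was not computed, so these separations have no background to be set against. The part of the glial markers in these differences was not tested.

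**Figure D2:**
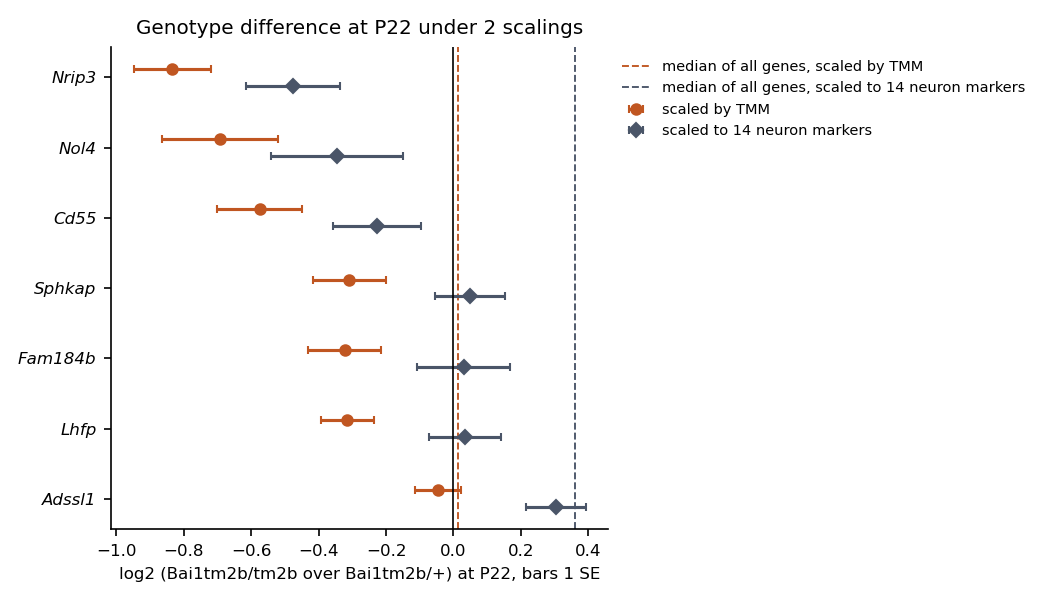
Log2 fold change of each gene between genotypes at P22 (x axis, bars 1 SE) when libraries were scaled by TMM or to the summed neuron markers, with dashed lines at the median of all genes under each scaling. All estimates move up by about the shift of the median of all genes, and *Sphkap*, *Fam184b* and *Lhfp* then sit at 0.03 to 0.05.

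At P7, the libraries in counts showed no called difference in the 7 genes. The calls were 0 higher and 0 lower, as for all 16023 genes tested (0% called in either direction, edgeR). An unadjusted p value under 0.05 was reached by 763 of these genes, and DESeq2 called 41 genes higher and 3 lower, none of them a member. The median log2 fold change was 0.02 for the 7 genes and 0.00 for all genes, and 5 estimates were above 0 and 2 below.

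*Nrip3*, the gene with the largest decrease at P22, was at 14.3, 13.7 and 14.1 CPM in *Bai1tm2b/+* and at 14.5, 23.3 and 21.5 CPM in *Bai1tm2b/tm2b* at P7 (log2 fold change 0.49, SE 0.173, unadjusted p = 0.0245, adjusted p = 0.894, edgeR). Replicates 6 and 7 of *Bai1tm2b/tm2b* were well above the controls, and replicate 5 only just exceeded them, and lay among them when all 12 libraries were scaled together (12.62 against 12.597 to 12.95 CPM). On that scale, markers of myelin-forming Schwann cells summed to 7346, 3626 and 7790 CPM in *Bai1tm2b/tm2b* replicates 5, 6 and 7 (controls 6617 to 11831). Supporting cell markers summed to 5548, 10511 and 8497 CPM in these pools (controls 6595 to 8637). The part of these cell types was not tested. *Sphkap* was at 13.9, 22.1 and 18.5 CPM in *Bai1tm2b/+* and at 16.8, 23.1 and 30.8 CPM in *Bai1tm2b/tm2b* (log2 fold change 0.37, SE 0.246, adjusted p = 0.894), with overlap. *Nol4* (3.24, 4.28 and 3.98 CPM against 3.06, 5.04 and 4.04 CPM) and *Cd55* (7.08, 8.19 and 6.43 CPM against 6.91, 7.22 and 4.73 CPM) overlapped as well, with log2 fold changes of 0.07 and -0.21 (SE 0.225 and 0.194).

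*Fam184b* was at 42.3, 41.6 and 44.7 CPM in *Bai1tm2b/+* and at 34.1, 51.4 and 45.2 CPM in *Bai1tm2b/tm2b* at P7, so that the spread among *Bai1tm2b/tm2b* pools was larger than the difference of the means (log2 fold change 0.02, SE 0.142). *Lhfp* was at 56.3, 63.0 and 57.1 CPM against 53.8, 55.8 and 53.8 CPM, without overlap (log2 fold change -0.11, SE 0.0680, adjusted p = 0.894, edgeR). *Adssl1* was at 5.96, 7.79 and 7.05 CPM against 6.64, 7.35 and 6.91 CPM (log2 fold change 0.00, SE 0.140). Groups that did not overlap were found for 1 member in each direction, *Nrip3* higher and *Lhfp* lower in *Bai1tm2b/tm2b*, and for 5.76% of all genes higher and 4.64% lower. With 3 pools per genotype an exact permutation test cannot give a p value under 0.1.

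The P7 libraries in rounded TPM gave a second comparison of 4 pools per genotype. Of the 7 genes, 5 had a mean of at least 5 TPM and were tested, and 0 were called in either direction, where 0.639% of 11738 genes were called higher and 0.162% lower (limma). An unadjusted p value under 0.05 was reached by 4026 of all genes and by 1 of the 5 members, *Fam184b*. The median log2 fold change, on the scale of log2(TPM + 1), was 0.03 for the 5 genes and 0.01 for all genes.

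*Fam184b* was at 10.9, 11.1, 10.7 and 9.89 TPM in *Bai1tm2b/+* and at 10.7, 14.3, 16.7 and 14.9 TPM in *Bai1tm2b/tm2b* after TMM scaling. Replicates 2 to 4 of *Bai1tm2b/tm2b* were above all controls and replicate 1 was among them (log2 fold change 0.37, SE 0.115, adjusted p = 0.0643, limma, and p = 0.0857 in an exact 2-sided permutation test, where 0.0286 is the smallest possible). *Sphkap* was at 4.95, 7.06, 4.28 and 3.30 TPM in *Bai1tm2b/+* and at 4.87, 6.69, 5.91 and 8.36 TPM in *Bai1tm2b/tm2b*, with overlap (log2 fold change 0.36, SE 0.197, adjusted p = 0.224, limma). *Cd55*, *Lhfp* and *Adssl1* overlapped too, with log2 fold changes of -0.16, -0.10 and 0.03 (SE 0.154, 0.0577 and 0.0958).

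*Nrip3* and *Nol4* fell below the minimum of 5 TPM and were compared by their values alone. *Nrip3* was at 4.95, 6.05, 5.35 and 4.39 TPM in *Bai1tm2b/+* and at 4.87, 3.82, 3.94 and 5.57 TPM in *Bai1tm2b/tm2b* (means 5.19 ± 0.698 and 4.55 ± 0.826 TPM, SD, n = 4, exact 2-sided permutation test, p = 0.286). The higher level of *Nrip3* in *Bai1tm2b/tm2b* pools in the libraries in counts was therefore not seen here, where the mean was lower and the groups overlapped. *Nol4* was deposited at 1 TPM in 6 of the 8 libraries and at 2 TPM in the other 2, a level at which rounding sets the values (exact 2-sided permutation test, p = 0.457).

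**Figure D3:**
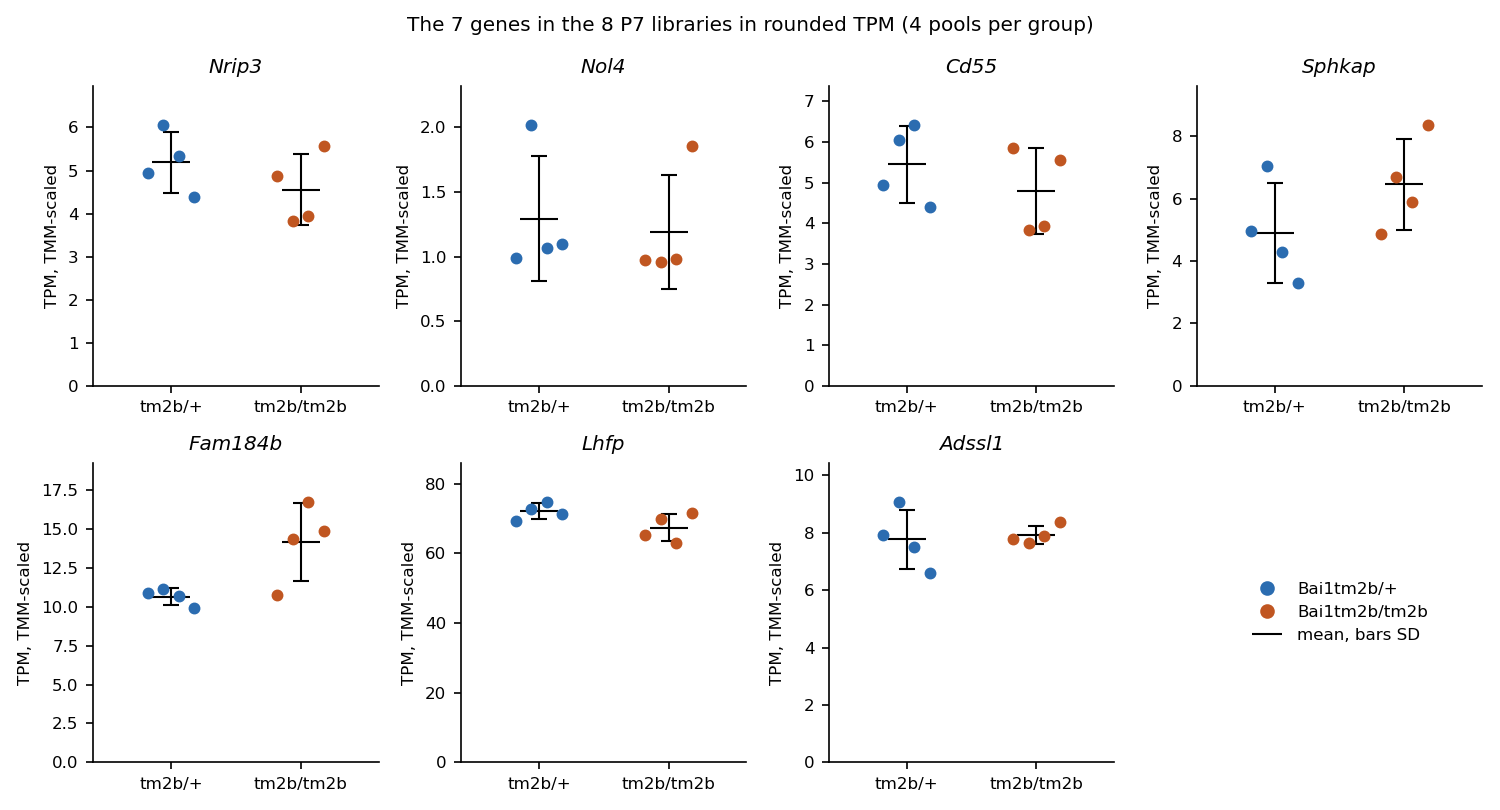
TMM-scaled TPM of each gene (y axis, from 0) in the 8 P7 libraries deposited in rounded TPM, by genotype (x axis), with 1 point per pool of 4 mice and the mean and SD of 4 pools in black. The genotypes overlap for all 7 genes, and 3 of the 4 *Bai1tm2b/tm2b* pools lie above the controls for *Fam184b*.

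**Figure D4:**
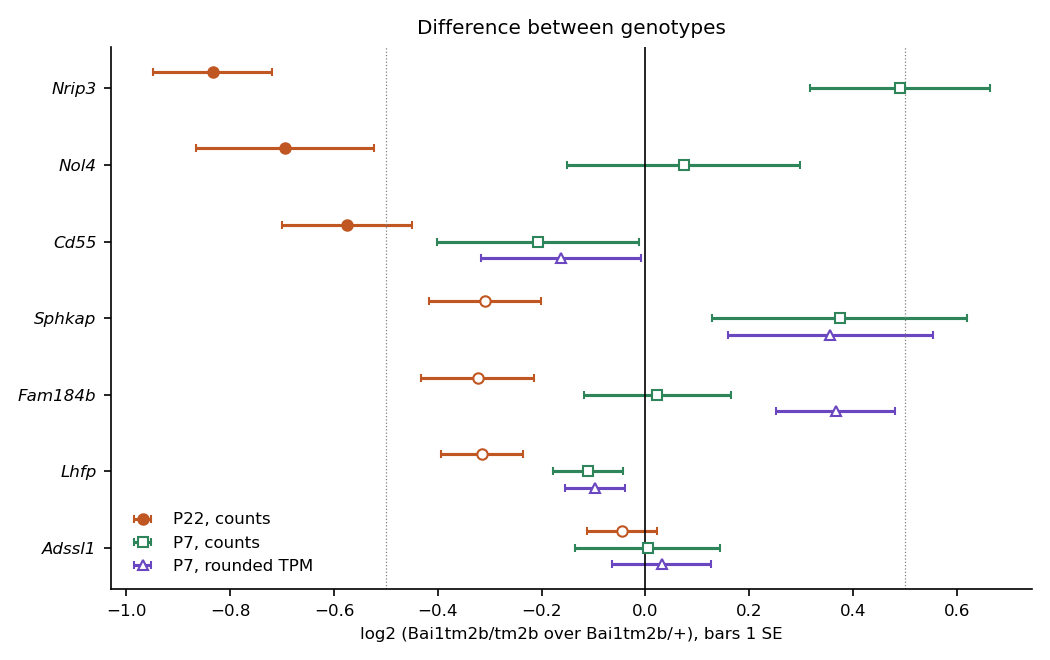
Log2 fold change of each gene between genotypes (x axis, bars 1 SE) at P22, in the P7 libraries in counts and in the P7 libraries in rounded TPM, where filled symbols mark called genes and dotted lines the limit of 0.5. The 3 filled symbols are *Nrip3*, *Nol4* and *Cd55* at P22, and *Nrip3* and *Nol4* have no value in rounded TPM because they were not tested there.

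Between P7 and P22 the 7 genes did not move as a group. In *Bai1tm2b/+* mice 5 of them were called higher at P22 and 1 lower, where 24.8% of 16310 genes were called higher and 27.0% lower (edgeR, 12 libraries in counts scaled together). In *Bai1tm2b/tm2b* mice 3 were called higher and 2 lower, against 24.2% and 25.1% of all genes. The median log2 fold change of the 7 genes was 0.87 in *Bai1tm2b/+* and 0.03 in *Bai1tm2b/tm2b*, beside -0.06 and -0.04 for all genes. Both comparisons set 1 sequencing table against another, and age and dissection or sequencing batch cannot be told apart.

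*Adssl1* rose most, from 6.33 ± 0.886 to 28.4 ± 0.677 CPM in *Bai1tm2b/+* (SD, n = 3 each) and from 6.25 ± 0.443 to 27.4 ± 0.514 CPM in *Bai1tm2b/tm2b*. The log2 fold changes of 2.16 (SE 0.102) and 2.13 (SE 0.102) differed by less than their errors. Markers of skeletal muscle (8 genes), the tissue from which *Adssl1* is best known, summed to 5.19 to 7.17 CPM at P7 and 2.46 to 4.19 CPM at P22, and their part in the change of *Adssl1* was not tested. *Sphkap* rose from 16.6 ± 3.86 to 66.7 ± 11.2 CPM in *Bai1tm2b/+* (log2 fold change 2.003, SE 0.220) and from 21.2 ± 6.68 to 53.6 ± 4.14 CPM in *Bai1tm2b/tm2b* (1.33, SE 0.216). *Cd55* rose from 6.60 ± 0.839 to 13.3 ± 0.811 CPM in *Bai1tm2b/+* (log2 fold change 1.00, SE 0.163) and from 5.63 ± 1.18 to 8.86 ± 1.21 CPM in *Bai1tm2b/tm2b* (0.66, SE 0.165). The call of *Cd55* in *Bai1tm2b/tm2b* was lost without P7 replicate 7, where its log2 fold change was 0.49. No library of these 3 genes at P22 was as low as any at P7 of the same genotype. Higher values at P22 without overlap were also found in 37.2% of all genes tested in *Bai1tm2b/+* and 36.2% in *Bai1tm2b/tm2b*.

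*Nrip3* and *Nol4* rose in *Bai1tm2b/+* and were not called in *Bai1tm2b/tm2b*. *Nrip3* was at 12.8 ± 0.193 CPM at P7 and 23.5 ± 1.18 CPM at P22 in *Bai1tm2b/+* (n = 3 each, log2 fold change 0.87, SE 0.164, adjusted p = 0.000382, edgeR). In *Bai1tm2b/tm2b* it was at 17.8 ± 4.53 and 13.1 ± 1.99 CPM, with overlap (log2 fold change -0.44, SE 0.165, adjusted p = 0.0289, edgeR). *Nol4* was at 3.50 ± 0.513 and 6.02 ± 0.245 CPM in *Bai1tm2b/+* (log2 fold change 0.78, SE 0.207, adjusted p = 0.00445, edgeR) and at 3.64 ± 0.953 and 3.70 ± 0.738 CPM in *Bai1tm2b/tm2b* (0.03, SE 0.209, adjusted p = 0.918). The *Nrip3* value in *Bai1tm2b/tm2b* passed the limit on size without P22 replicate 3 (-0.51) or without P7 replicate 5 (-0.64).

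*Fam184b* and *Lhfp* moved the other way. *Fam184b* fell from 39.1 ± 1.51 to 15.1 ± 0.578 CPM in *Bai1tm2b/+* (log2 fold change -1.37, SE 0.140) and from 39.2 ± 8.61 to 11.99 ± 1.45 CPM in *Bai1tm2b/tm2b* (-1.71, SE 0.142). *Lhfp* was at 53.7 ± 3.64 and 42.3 ± 2.14 CPM in *Bai1tm2b/+* (log2 fold change -0.34, SE 0.0783, adjusted p = 0.00166, edgeR, below the limit on size) and fell from 48.9 ± 1.87 to 33.9 ± 2.82 CPM in *Bai1tm2b/tm2b* (-0.53, SE 0.0787), a call that was lost without P22 replicate 3 (-0.47). Neither gene therefore rose with age in either genotype.

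**Figure D5:**
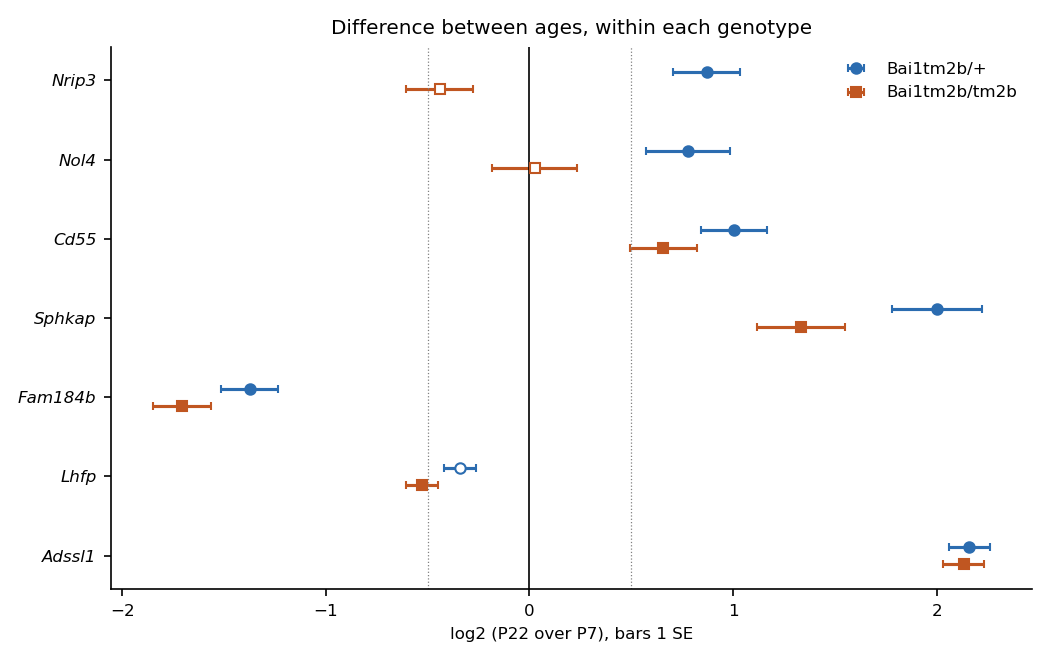
Log2 fold change of each gene from P7 to P22 (x axis, bars 1 SE) within each genotype, in the libraries in counts, where filled symbols mark called genes and dotted lines the limit of 0.5. *Adssl1* has nearly the same value in both genotypes (2.16 and 2.13), and *Nrip3* lies on opposite sides of 0 (0.87 and -0.44).

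These directions depend on the scale. The summed neuron markers were at 1605 to 3171 CPM in *Bai1tm2b/+* and 1369 to 2138 CPM in *Bai1tm2b/tm2b* at P7, and at the P22 levels above, and markers of fibroblasts (6 genes) summed to between 5764 and 8086 CPM at P7 and between 1649 and 2054 CPM at P22, with 6 and 5 of 6 called lower in *Bai1tm2b/+* and *Bai1tm2b/tm2b*. In *Bai1tm2b/+* and *Bai1tm2b/tm2b* alike, 13 of 14 neuron markers were called higher at P22 and 1 lower. SGN markers summed to 518 to 840 CPM at P7 and 1917 to 2660 CPM at P22 (6 of 8 called higher and 1 lower in each genotype). Their median log2 fold change was 1.32 in *Bai1tm2b/+* and 1.36 in *Bai1tm2b/tm2b*, below that of the neuron markers (2.49 and 2.67). No scaling to the SGN markers was made. Supporting cell markers summed to 5548 to 10511 CPM at P7 and 942 to 1243 CPM at P22 (5 of 7 called lower and 1 higher in each genotype), and hair cell markers to 539 to 841 and 352 to 507 CPM (6 of 8 called lower in each genotype). Markers of Schwann cells, which wrap the fibres of SGNs in myelin, summed to 3626 to 11831 CPM at P7 and 16045 to 17733 CPM at P22 (5 of 8 called higher in *Bai1tm2b/+* and 7 in *Bai1tm2b/tm2b*). The part of these cell types in the changes with age was not tested. With library totals in place of TMM, *Nol4* was no longer called in *Bai1tm2b/+* (0.49) nor *Cd55* in *Bai1tm2b/tm2b* (0.37), while *Lhfp* in *Bai1tm2b/+* (-0.64) and *Nrip3* in *Bai1tm2b/tm2b* (-0.71) were called lower, and the median of all genes moved to -0.35 and -0.32. Scaled to the neuron markers, 0 of the 7 genes were called higher at P22 and 7 lower in each genotype, where 83.0% and 83.3% of all genes were called lower and 0.785% and 0.938% higher in *Bai1tm2b/+* and *Bai1tm2b/tm2b*, and the median of all genes moved to -2.88 in *Bai1tm2b/+* and -2.75 in *Bai1tm2b/tm2b*. *Adssl1* (-0.61 and -0.58), *Sphkap* (-0.76 and -1.32) and *Cd55* (-1.79 and -2.09) still lay above those medians. *Fam184b* (-4.20 and -4.38) and *Lhfp* (-3.15 and -3.24) lay below them. *Nrip3* lay above in *Bai1tm2b/+* (-1.96) and below in *Bai1tm2b/tm2b* (-3.10), as it did under TMM, and *Nol4* was at -1.995 and -2.65.

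The difference between the genotype effects at P22 and P7 was then tested directly, in 1 fit over the 12 libraries in counts. All 7 estimates were below 0, as were 45.7% of all genes, with a median of -0.35 beside 0.02 for all genes. The genotype difference at P22, itself below 0 for all 7, is part of this estimate, so the count is not separate from it. Of the 7 genes, 0 were called in either direction, where 0% of 16310 genes were called higher and 0.0307% lower (edgeR). The estimate was -1.31 for *Nrip3* (SE 0.232, unadjusted p = 9.9e-05, adjusted p = 0.0850), -0.75 for *Nol4* (SE 0.294, unadjusted p = 0.0246) and -0.67 for *Sphkap* (SE 0.302, unadjusted p = 0.0461), so that 3 of the 7 had an unadjusted p value under 0.05 against 1664 of all genes. For *Cd55*, *Fam184b*, *Lhfp* and *Adssl1* it was -0.35, -0.33, -0.19 and -0.03. *Nrip3* was called with DESeq2 (-1.35, adjusted p = 6.95e-05), which called 88 genes lower and 31 higher, and with edgeR when P7 *Bai1tm2b/tm2b* replicate 5 was left out (-1.51, adjusted p = 0.00285), where 61 genes were called lower and 40 higher. The 5 genes that edgeR called, named after their values were seen, were *Nova2*, *9330102E08Rik*, *Bzrap1*, *Efr3b* and *Hivep1*.

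Levels of the genes were compared with each other per length of exon. In *Bai1tm2b/+* at P22, in TPM computed here from the counts and the total exon length, the order was *Adssl1* (46.2 ± 1.47, SD, n = 3), *Lhfp* (28.1 ± 1.47), *Sphkap* (23.6 ± 4.14), *Nrip3* (19.9 ± 1.22), *Cd55* (9.28 ± 0.669), *Fam184b* (5.95 ± 0.195) and *Nol4* (3.59 ± 0.105). *Lhfp* and *Sphkap* overlapped and *Sphkap* and *Nrip3* met at 21.0, and the other neighbours did not overlap. In the 3 *Bai1tm2b/+* libraries in counts at P7 the order was *Lhfp* (44.9 ± 1.94), *Fam184b* (19.4 ± 0.925), *Nrip3* (13.7 ± 0.544), *Adssl1* (12.9 ± 1.495), *Sphkap* (7.36 ± 1.53), *Cd55* (5.80 ± 0.630) and *Nol4* (2.62 ± 0.325), where *Nrip3* and *Adssl1* overlapped, as did *Sphkap* and *Cd55*. In the 4 *Bai1tm2b/+* libraries in rounded TPM *Nrip3* stood lower in the order, which ran *Lhfp* (69.25 ± 2.99 TPM as deposited, SD, n = 4), *Fam184b* (10.25 ± 0.957), *Adssl1* (7.5 ± 1.29), *Cd55* (5.25 ± 0.957), *Nrip3* (5 ± 0.817), *Sphkap* (4.75 ± 1.71) and *Nol4* (1.25 ± 0.5), with overlap from *Adssl1* to *Sphkap*. The length basis of these deposited values is not stated, so the change of order cannot be told apart from a difference of measure. Among the libraries in counts *Adssl1* moved from a median percentile of 58.3 among all genes to 82.2, and *Fam184b* from the percentile 64.0 to 53.7.

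Relatives and partners of the 7 genes were examined as a list of 28 genes. Of these, 0 of 21 tested were called between genotypes at P22 and 0 of 24 in the P7 libraries in counts. Some relatives passed the test at P22 but not the limit on size, like *Lhfp*, where 1904 of all 15439 genes passed the test. Lower in *Bai1tm2b/tm2b* were *Lhfpl4* (log2 fold change -0.35), *Prkar1b* (-0.34), *Lhfpl3* (-0.33), *Adss* (-0.26) and *Prkar1a* (-0.23). Of the relatives that passed, *Cr1l* was higher (0.32), and their adjusted p values lay between 0.0082 and 0.0272 (edgeR). In rounded TPM 1 of 19 was called, *Prkar1b*, a regulatory subunit of protein kinase A, at 48.9 ± 9.43 TPM in *Bai1tm2b/+* and 71.5 ± 10.65 TPM in *Bai1tm2b/tm2b* (SD, n = 4, log2 fold change 0.55, SE 0.143, adjusted p = 0.0469, limma). No gene was called higher in that set, and so neither was *Prkar1b*, with the replicate block, with a minimum mean of 1 TPM, without a filter, and when any 1 of 6 of the 8 libraries was omitted. In the P7 libraries in counts *Prkar1b* had the opposite sign (69.6 ± 26.0 and 47.7 ± 7.48 CPM, SD, n = 3, log2 fold change -0.55, SE 0.256, adjusted p = 0.894, edgeR). The difference between genotype effects was called for 0 of 24.

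With age, 13 of 24 relatives were called higher at P22 in *Bai1tm2b/+* and 5 lower, and 12 higher and 4 lower in *Bai1tm2b/tm2b*, beside 24.8% and 27.0% of all genes in *Bai1tm2b/+* and 24.2% and 25.1% in *Bai1tm2b/tm2b*. Folds below are P22 over P7 in *Bai1tm2b/+* (edgeR). *Nrip2* rose 3.06 fold, like its relative *Nrip3* in this genotype, and in *Bai1tm2b/tm2b* it rose 2.85 fold. *Nol4l* fell to 0.627 fold.

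Around *Sphkap*, the anchoring protein *Akap11* rose 1.81 fold, the kinase subunits *Prkar1a* and *Prkar1b* 1.81 and 7.76 fold, and the sphingosine kinases *Sphk1* and *Sphk2* 1.496 and 1.486 fold. Among complement genes, *Cd59a*, which blocks the membrane attack complex, rose 4.33 fold and *C3*, the central component, 9.14 fold from 0.591 ± 0.0829 CPM, while the regulators *Cfi* and *Cr1l* fell to 0.194 and 0.558 fold. *Cd55b*, a close copy of *Cd55*, was listed at 0 in all 20 libraries. Complement regulators thus moved in both directions.

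In the family of *Lhfp*, *Lhfpl3* and *Lhfpl4*, a partner of inhibitory receptors in neurons, rose 9.87 and 8.04 fold, and *Lhfpl5*, a part of the transduction complex of hair cells, rose 1.42 fold. *Lhfpl2* fell to 0.617 fold in *Bai1tm2b/+* and was not called in *Bai1tm2b/tm2b* (0.746 fold). *Lhfp* was called in *Bai1tm2b/tm2b* (0.693 fold) and not in *Bai1tm2b/+* (0.789 fold). Among genes of the purine nucleotide cycle, *Adss*, the widely expressed synthase, rose 1.60 fold and *Ampd3* 2.63 fold, both less than *Adssl1*. *Fam184a* was called in *Bai1tm2b/tm2b*, where it fell to 0.694 fold, and the difference between genotypes was not called. All these folds were scaled by TMM, under which the summed neuron markers rose as given above.

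Within each age, the 7 genes varied together to different degrees across the 12 libraries in counts (Pearson r of log2(CPM + 1) after removal of each age's mean, a description that includes the genotype difference and shared library effects). All 21 pairs had r above 0, from 0.02 for *Cd55* and *Sphkap* to 0.83 for *Nrip3* and *Nol4*, with a median of 0.55, and 3 pairs were above 0.7. The other two of these were *Nrip3* with *Fam184b* (0.77) and *Nol4* with *Fam184b* (0.73). *Adssl1* had no r above 0.61 with another member. All 7 genes had genotype estimates below 0 at P22, and that shared direction is part of r. No share over all pairs of genes was computed, so these values have no background to be set against.

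Over the same libraries, the 3 genes most like each member among 16309 others were *Mafa*, *Opcml* and *Chml* for *Nrip3* (r of 0.92, 0.92 and 0.91), and *Arhgef3*, *Dnlz* and *Tmem132c* for *Nol4* (0.93, 0.92 and 0.92). They were *Eme2*, *Zfp385a* and *Nol6* for *Cd55* (0.93 each), and *Jazf1*, *Chd3os* and *AF529169* for *Sphkap* (0.95, 0.94 and 0.94). For *Fam184b* they were *8430419L09Rik*, *Cdkl2* and *Enpp5* (0.94, 0.92 and 0.91), for *Lhfp* *Dusp5*, *Snx12* and *Pygm* (0.94, 0.94 and 0.93), and for *Adssl1* *Gpr61*, *Cdk5r1* and *Tmem181c-ps* (0.92, 0.91 and 0.91). No member was among the 3 genes most like another. Each r is among the highest of a search over 16309 genes in 12 libraries, and no background was computed for such a search.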

How the data were processed

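The RNA-seq tables hold 20 libraries, each a pool of 4 mice. Per the methods, the authors enriched poly A RNA, sequenced read pairs, ran nf-core's RNA pipeline against mm10 and obtained gene counts from Salmon. STAR, Salmon and DESeq2 are named in the submitters' processing notes. Versions, annotation release and strand setting are not given in the sources used here. For P22 and P7 replicates 5 to 7 the authors deposited estimated counts per gene, without normalization. For P7 replicates 1 to 4 the deposited unit is not named and is treated as a score, TPM in whole numbers by its column sums, which makes low genes coarse and gives no depth. 0 columns were left without a sample, and 4 entries whose symbol occurred more than once or was altered were left out, which leaves 24407 genes.

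Estimated counts were rounded, filtered with filterByExpr, scaled by TMM and compared with edgeR 4.0.16 (quasi-likelihood, R 4.3.3). The SE is the log2 fold change divided by the root of F. Age and genotype by age came from 1 fit of the 12 libraries in counts. Rounded TPM values were scaled by TMM and compared with limma 3.58.1 on log2(TPM + 1) with a trend, at a mean of at least 5 TPM. All p values were adjusted over all genes tested (Benjamini-Hochberg). A call took an adjusted p under 0.05, a log2 fold change above 0.5 and an SE under 0.5. Single values were compared by exact 2-sided permutation tests (scipy 1.17.1). DESeq2 1.42.0 and the other alternatives are in the closing section. Each fit was tested on simulated libraries with known changes, but the comparison of ages in *Bai1tm2b/+* was not among those checked. The genes named were the 7 members, their listed relatives where called (1 of them is not reported here), *Adgrb1* and the 3 genes most alike. The members, relatives and marker lists (neurons, SGNs, hair cells, supporting cells, Schwann cells, central glia, skeletal muscle and fibroblasts) were chosen with earlier results of these data known.

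Replicates are separate pools. Replicate numbers were checked for pairing, and libraries with the same number did not deviate together (correlations of -0.23 to 0.08). No 2 libraries held near-identical values. The labels do not name the P7 batches, and it was assumed that the libraries in counts and in rounded TPM (3 and 4 per genotype) are the 2 batches of the methods. They were tested separately.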

Additional observations from a re-analysis of the deposited data

Results flagged for a closer look

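*Nrip3* had genotype differences in opposite directions at the 2 ages in the libraries in counts. Every *Bai1tm2b/tm2b* library was below every *Bai1tm2b/+* library at P22 and above at P7, when each age was scaled alone. The difference between the effects was -1.31 on the log2 scale (SE 0.232, adjusted p = 0.0850, edgeR), so it failed the correction, and it ranged from -1.51 to -1.15 over all 17 alternatives. The P7 libraries in rounded TPM did not show the opposite direction (means 5.19 and 4.55 TPM, with overlap). Schwann cell and supporting cell marker sums differed among the P7 *Bai1tm2b/tm2b* pools in counts, as given above, and their part was not tested. Age, table and batch cannot be told apart.

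Of 14 groups of 4 libraries in rounded TPM (7 genes, both genotypes), 2 held a library that stood apart from the others by Dixon's limit. Both were of *Nol4*, with *Bai1tm2b/+* replicate 2 at 2.02 TPM and *Bai1tm2b/tm2b* replicate 4 at 1.86 TPM after scaling. Each was deposited at 2 TPM where the others were at 1 TPM.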

How the results depend on the processing

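Over 40 results for single members, 554 of 609 alternatives kept direction and call, 15 lost a call, 8 gained one and 32 changed sign, and 171 of 182 counts of called members stayed within 1.5 times. Scaled to neuron markers, members called lower at P22 went from 3 to 0 and those called with age to 0 higher and 7 lower in both genotypes, while all genes called lower went to 42 at P22 and to 13544 and 13585 with age. This scaling moved the median of all genes from 0.01 to 0.36 at P22 and to -2.88 and -2.75 with age, so it moved members and other genes alike. Signs then changed at P22 for *Sphkap* (0.0479), *Fam184b* (0.0301), *Lhfp* (0.0339) and *Adssl1* (0.303), in P7 counts for *Cd55* (0.0787) and *Lhfp* (0.13), in TPM for *Adssl1* (-0.0708) and for its genotype by age (0.0391). With age in *Bai1tm2b/+* they changed for *Nrip3* (-1.96), *Nol4* (-1.995), *Cd55* (-1.79), *Sphkap* (-0.76) and *Adssl1* (-0.61), and in *Bai1tm2b/tm2b* for *Nol4* (-2.65), *Cd55* (-2.09), *Sphkap* (-1.32) and *Adssl1* (-0.58). With library totals in place of TMM, 2 members were called lower with age in *Bai1tm2b/+*, *Nol4* in *Bai1tm2b/tm2b* was at -0.25 and *Adssl1* at P22 at 0.0175. With TPM as deposited *Lhfp* was at 0.0177. DESeq2 put *Adssl1* in P7 counts at -0.000293 and called 1 member lower for genotype by age. The cause of these changes was not tested.

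Leaving out 1 library at a time gave 1 to 3 members called lower at P22 and 0 to 1 for genotype by age. In P7 counts it gave -0.112 to 0.235 for *Nol4*, -0.112 to 0.171 for *Fam184b* and -0.0858 to 0.0975 for *Adssl1*. It gave -0.0359 to 0.1005 for *Adssl1* in TPM, -0.128 to 0.0718 for *Adssl1* in genotype by age and -0.153 to 0.218 for *Nol4* with age in *Bai1tm2b/tm2b*. With the replicate block, members called lower at P22 stayed at 3 (*Nrip3* -0.84, *Nol4* -0.71, *Cd55* -0.58), none was called at P7, and no member's call changed. All genes called at P22 ranged from 108 to 3356 higher and 42 to 282 lower, those with age from 128 to 4292 higher and 3803 to 13585 lower, those for genotype by age from 0 to 40 higher and 0 to 88 lower, those in P7 counts from 0 to 41 and 0 to 3, and those in TPM from 0 to 283 and 0 to 64. The lowest and highest with age came from the neuron scaling except 4292 (libraries of 1 genotype) and 3803 (without P22 *Bai1tm2b/tm2b* replicate 1). The smallest members, *Nol4* and *Cd55*, rest on 122 to 474 counts per library at P22, and rounding to 1 TPM limits both in the P7 libraries in TPM.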
